A study of Mus musculus with 12 samples.

Results

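LincRNA-p21 was knocked down in cultured neonatal mouse cardiomyocytes that had received no hypertrophic stimulus, and the change was followed across all genes. The samples were chosen by their labels alone: the 3 libraries of cells given phosphate-buffered saline (PBS) with a GapmeR against lincRNA-p21 were compared with the 3 libraries of cells given PBS with a negative-control GapmeR, 6 of the 12 libraries of the series. The other 6 libraries came from cells given the same 2 GapmeRs and phenylephrine for 24 hours (PE), a drug that stimulates alpha1-adrenergic receptors and makes cardiomyocytes grow. They are used here to show where the change without PE differed from that with PE and where it was shared. They also entered the fit for the PBS comparison, through the filter on low values and the shared estimate of the spread. With the 6 PBS libraries alone fewer genes passed, as given at the end. All 4 groups were labelled as mouse cardiomyocytes, and every group received a GapmeR. The labels gave no strain, sex or dose, and did not say whether replicates were separate cultures, so p-values reflect the spread among these libraries alone.

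A GapmeR is a short antisense oligonucleotide with a DNA core, which directs RNase H to cut the RNA it pairs with, in the nucleus as well as in the cytoplasm. LincRNA-p21 (gene Trp53cor1) is a long noncoding RNA induced by p53, made next to Cdkn1a, the gene of the cell cycle inhibitor p21. In heart muscle cells, alpha1-adrenergic signals and calcium act through protein kinase C and the phosphatase calcineurin, which frees NFAT factors to enter the nucleus and work with MEF2 factors on growth genes. The labels name 1 GapmeR of each kind, so a change that follows the lincRNA and one that follows the oligonucleotide itself cannot be told apart. The GapmeR sequences are not used here.

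Values are normalised read counts, that is reads per gene divided by 1 size factor per library. The 6 PBS libraries held 21330609 to 22139681 reads in genes, with size factors from 0.978 to 1.106. Mitochondrial genes took 8.24%, 10.7% and 8.19% of the signal in PBS control replicates 1 to 3, and 6.0%, 4.33% and 7.55% in PBS knockdown replicates 1 to 3. PBS control replicate 2 and PBS knockdown replicate 2 stood furthest from their groups, with a root mean square residual of 0.447 and 0.430 log2 units against 0.365 to 0.385 in the other PBS libraries. All 12 cardiomyocyte markers were detected, with a summed value of 844300 to 931600 in the controls and 703200 to 765200 in the knockdown, and none was called changed by limma (2 at an unadjusted p under 0.05) or by edgeR or limma-voom. DESeq2 called 1 lower, as did limma without PBS control replicate 2, PBS knockdown replicate 2 or both, and with a CPM of at least 1 in 3 libraries. Markers of fibroblasts (summed value 72590 to 77520 in the controls and 63640 to 79320 in the knockdown), smooth muscle and pericytes (60710 to 78570 and 56020 to 59660), epicardium (8956 to 9637 and 10030 to 10430), endothelium (6911 to 7949 and 6470 to 8665) and leukocytes (2970 to 3814 and 2927 to 3073) were present too, so the cultures held other cell types. Of these lists, fibroblast markers had 2 of 12 members lower and endothelial markers 1 of 14 lower, against 3.21% of all genes. Leukocyte markers had 1 of 13 members higher and epicardial markers 1 of 10 higher, against 1.36% of all genes. Smooth muscle and pericyte markers had 0 of 11 called (3 at an unadjusted p under 0.05, and 0 called by edgeR, DESeq2 or limma-voom). Schwann cell markers summed to 124.8 to 163.3 and 86.17 to 107.0, and erythroid markers to 4.72 to 8.54 and 9.07 to 55.13, with no member called by limma over the 12 libraries (of 5 and 4 tested; 2 and 0 at an unadjusted p under 0.05). Of the Schwann cell markers, the cadherin Cdh19 (-1.33, adjusted p = 0.068) was called lower by edgeR (-1.39, adjusted p = 0.023), DESeq2 (-1.40, 0.024) and limma-voom (-1.38, 0.035), and by limma on the 6 PBS libraries alone (0.025). EdgeR, DESeq2 and limma-voom called no erythroid marker. In bulk RNA, fewer cells of a type and less RNA per cell cannot be told apart.

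The target itself was lower in every knockdown library. Trp53cor1 (ENSMUSG00000085912.3, GRCm38 chr17:29057430-29079179, minus strand) had a normalised read count of 59.8, 70.6 and 63.2 in the controls and 12.7, 22.6 and 10.1 in the knockdown. The groups did not overlap, and the mean was 76.6% lower. Part of it is shared with AC167363.1 on the opposite strand. Whether the counting used strand is not given in the sources used here.

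Of 21799 genes tested, 297 (1.36%) rose and 700 (3.21%) fell with the knockdown in PBS (limma, Benjamini-Hochberg adjusted p under 0.05; log2 changes are of the value plus 1, each with the limma standard error). The median change of the called genes was 0.53 upwards and -0.64 downwards, and 32 genes rose and 129 fell by at least 2-fold. Library values of the 2 groups did not overlap for 4798 genes (22.0%). The split between rises and falls moved with the scaling. After rescaling each library to the same total, 481 genes were called higher and 501 lower, so that falls made up 51.0% of calls instead of 70.2%. Falls made up 64.0% of calls after rescaling without mitochondrial genes, 81.8% with edgeR and TMM, 81.1% with edgeR and median-of-ratios factors, 72.4% with DESeq2 and 83.7% with limma-voom. The plot of level and change shows a few genes far above the rest and a broad set of abundant genes below 0.

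**Figure D1:**
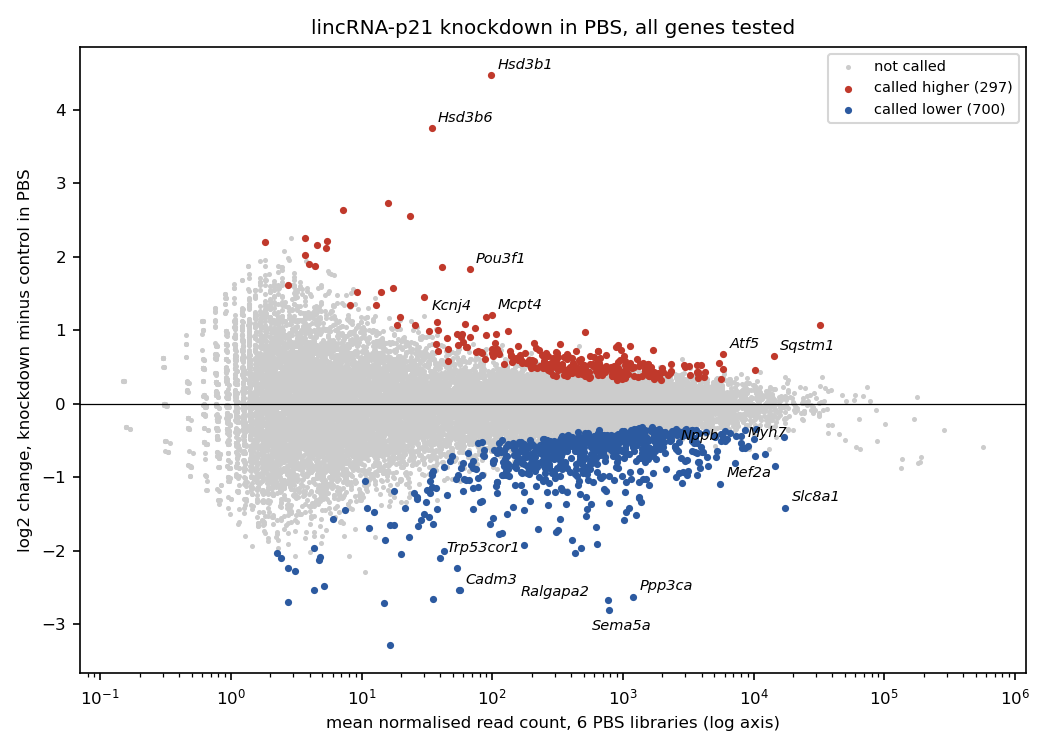
Log2 change of each tested gene (vertical axis, knockdown minus control in PBS) against its mean normalised read count over the 6 PBS libraries (log axis). The 297 genes called higher are red and the 700 called lower are blue, with Hsd3b1 and Hsd3b6 highest among the labelled genes and Sema5a lowest.

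The 2 largest rises over all genes tested were in a pair of neighbouring steroid enzymes. Hsd3b1 and Hsd3b6 encode 3-beta-hydroxysteroid dehydrogenases, which turn delta-5 steroids such as pregnenolone into delta-4 steroids such as progesterone. Hsd3b1 (ENSMUSG00000027871.17, GRCm38 chr3:98852194-98859794, minus strand) had values of 2.85, 17.4 and 7.55 in the controls and 179.5, 168.1 and 212.7 in the knockdown. Its log2 change was 4.47 ± 0.35 (adjusted p = 1.6e-07). Hsd3b6 (ENSMUSG00000027869.15, GRCm38 chr3:98805504-98814443, minus strand) had values of 2.85, 2.04 and 8.49 in the controls and 62.6, 53.3 and 77.0 in the knockdown, a log2 change of 3.75 ± 0.32 (adjusted p = 3.8e-07). Every knockdown library stood far above every control for both genes. With PE the rise was again present, with values of 458.1, 422.6 and 424.9 for Hsd3b1 in PE with the lincRNA-p21 GapmeR against 9.69, 12.8 and 10.8 with the control GapmeR. The longest transcripts of the 2 genes, 1855 and 1802 bases, were 79.1% identical, but none of the 100-base windows of one occurred in the other, 100 bases being the read length. Their promoter windows are shown because the genes rose together from low levels. The windows run from 250 bases before to 50 bases after the start (RefSeq, GRCm38.p6, chr3:98859745-98860044 and chr3:98814394-98814693, both on the minus strand and printed 5′ to 3′ along the gene). No motif was marked, so they are in lower case throughout, and 50.6% of their aligned positions are identical.
Hsd3b1: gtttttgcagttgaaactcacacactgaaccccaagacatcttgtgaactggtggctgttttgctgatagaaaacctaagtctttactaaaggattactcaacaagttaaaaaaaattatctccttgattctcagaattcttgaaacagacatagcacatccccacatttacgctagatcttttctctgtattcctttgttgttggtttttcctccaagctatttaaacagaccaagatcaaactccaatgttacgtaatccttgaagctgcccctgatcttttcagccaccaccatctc
Hsd3b6: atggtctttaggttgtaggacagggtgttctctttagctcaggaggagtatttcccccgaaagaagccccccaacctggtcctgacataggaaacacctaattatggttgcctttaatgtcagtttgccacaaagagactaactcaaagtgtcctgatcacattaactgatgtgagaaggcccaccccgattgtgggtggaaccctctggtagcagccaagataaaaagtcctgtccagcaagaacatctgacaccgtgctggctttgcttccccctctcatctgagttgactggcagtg

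Of the other steroid enzymes, Hsd11b1, which regenerates active glucocorticoid from its inert form, moved the opposite way. Its values were 119.6, 92.0 and 102.9 in the controls and 35.4, 40.7 and 38.5 in the knockdown, a log2 change of -1.43 ± 0.21 (adjusted p = 2.9e-04). Of 10 listed steroid enzymes 8 were tested, and 3 rose (37.5%, against 1.36% of all genes) and 1 fell. The list was written with earlier results of these data known and holds Hsd3b1 and Hsd3b6, so its share is no separate evidence. The third that rose, Srd5a3, a polyprenol reductase named with the steroid reductases, changed by 0.37, and leaving out any 1 of the 6 libraries lost that call. Star and Cyp11a1, which begin steroid synthesis, had log2 changes of 0.01 and 0.93 and were not called. None of 22 cholesterol synthesis genes was called by limma, edgeR or limma-voom, and 1 was by DESeq2 (4 at an unadjusted p under 0.05 in limma; median 0.10, against 0.001 over all genes tested).

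Among genes whose mean value reached 50 in PBS, the next largest rise after Hsd3b1 was in Pou3f1, a POU-domain transcription factor of neural and Schwann cell lineages. Its values were 26.6, 29.6 and 30.2 in the controls and 96.1, 125.6 and 95.3 in the knockdown (log2 change 1.83 ± 0.19, adjusted p = 5.4e-06). Mcpt4, a mast cell protease, went from 53.1, 72.6 and 53.8 to 149.6, 140.1 and 125.6, a change of 1.21 ± 0.17. Kcnj4, an inward-rectifier potassium channel, went from 47.4, 65.4 and 49.1 to 121.5, 153.7 and 99.0, a change of 1.19 ± 0.17. For these 3 genes the groups did not overlap. Fam69b and Tmem229b rose by 0.95 and 0.91, and Dcaf12l1 rose by 0.93 but was not called without PBS control replicate 3 (0.87). Plppr3 rose by 1.03, but an exon of the far more abundant Ptbp1 overlaps it. The rises of Mir6236 (1.00), Aoc2 (0.95), Rnf227 (0.95) and Ldhd (0.91), and that of Plppr3, each lost their call when any of 3 or more PBS libraries was left out singly, among them at 0.89 without PBS control replicate 3 for Mir6236, 0.66 without PBS control replicate 2 for Aoc2, 0.80 without PBS control replicate 3 for Rnf227, 0.72 without PBS control replicate 3 for Ldhd and 0.87 without PBS knockdown replicate 2 for Plppr3.

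Sqstm1, which encodes the autophagy receptor p62, was the most abundant named gene that rose. Its values were 11070, 10960 and 11160 in the controls and 18080, 17930 and 16180 in the knockdown, and its log2 change of 0.65 ± 0.10 (adjusted p = 3.2e-04) kept its call under all 18 alternatives. The other abundant genes that rose were Atf5 (0.67), a stress-induced transcription factor, Cd24a (0.47), a surface glycoprotein, Ddr1 (0.46), a collagen receptor, and Trim28 (0.34), a corepressor. The calls of Cd24a, Ddr1 and Trim28 were lost in 11, 10 and 13 of 18 alternatives, all 3 without PBS control replicate 1 (0.42, 0.46 and 0.30) and without PBS control replicate 3 (0.43, 0.46 and 0.34), Cd24a also without PBS knockdown replicate 1 (0.44) or 3 (0.39), Ddr1 without PBS control replicate 2 (0.47) or PBS knockdown replicate 2 (0.30), Trim28 without PBS control replicate 2 (0.37) or PBS knockdown replicate 1 (0.37) or 2 (0.25), and that of Atf5 without PBS control replicate 3 (0.58). An identifier with no symbol in the tables used here, ENSMUSG00000119584.1, was more abundant than any of these, with 19410, 25160 and 16040 in the controls and 36450, 63950 and 31580 in the knockdown (log2 change 1.08 ± 0.24, adjusted p = 0.011).

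The named genes that fell furthest were Sema5a, Ralgapa2 and Ppp3ca. Sema5a, a semaphorin that guides axons, had values of 1375, 1352 and 1364 in the controls and 163.2, 216.9 and 209.0 in the knockdown, a log2 change of -2.80 ± 0.13 (adjusted p = 6.8e-11). Ralgapa2, a subunit of the complex that switches off Ral GTPases, went from 1363, 1243 and 1372 to 168.6, 246.7 and 215.4, a change of -2.67 ± 0.12. Adgrl3, a latrophilin adhesion receptor, went from 100.6, 87.9 and 103.8 to 14.5, 17.2 and 16.5, a change of -2.53 ± 0.25. In each of the 3 the highest knockdown library lay far below the lowest control. Cadm3, a cell adhesion molecule, changed by -2.54 ± 0.36 and Rgs17, a regulator of G protein signalling, by -2.24 ± 0.20.

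Urm1, a ubiquitin-like protein that carries sulphur for tRNA modification, went from 723.0, 846.7 and 721.1 to 220.3, 197.9 and 169.6 (-1.96 ± 0.14). Erbb4, the neuregulin receptor of cardiomyocytes, went from 1026, 930.5 and 1028 to 239.4, 282.9 and 273.2 (-1.91 ± 0.13, adjusted p = 1.5e-08). Neuregulin's own gene, Nrg1, changed by -0.03 and was not called. Tmem131l (-2.03), Nckap5 (-1.93), the formin Diaph3 (-1.85) and the SOX factor Sox5 (-1.77) completed, together with Ppp3ca, the 12 lowest named among genes whose mean value reached 50 in PBS. The plot of values by library shows how little the groups of Sema5a, Ralgapa2 and Ppp3ca vary within themselves.

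**Figure D2:**
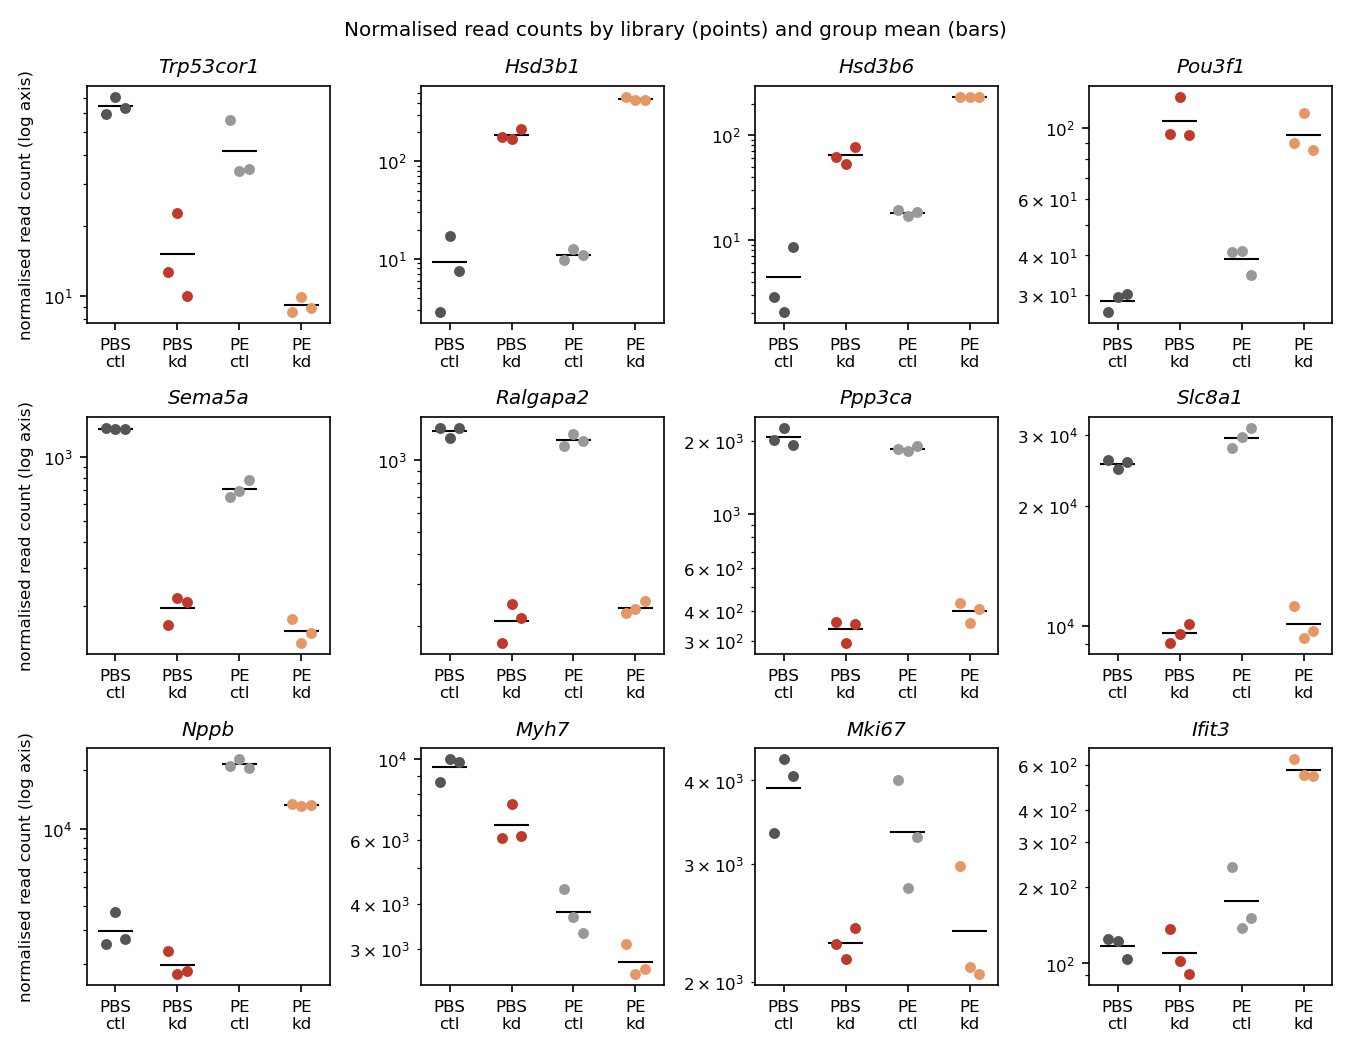
Normalised read counts (log axis) of 12 genes in each of the 12 libraries (points), with group means (bars), for PBS control, PBS knockdown, PE control and PE knockdown (ctl, control; kd, knockdown). Trp53cor1, Sema5a, Ralgapa2, Ppp3ca and Slc8a1 are lower in both knockdown groups, Hsd3b1, Hsd3b6 and Pou3f1 are higher in both, and Ifit3 is highest in the PE knockdown libraries, from 544.0 to 632.6.

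A catalytic subunit of calcineurin was among the deepest falls. Ppp3ca (ENSMUSG00000028161.18, GRCm38 chr3:136670124-136937727, plus strand), the alpha catalytic subunit of calcineurin, had values of 2015, 2260 and 1917 in the controls and 358.1, 293.7 and 353.0 in the knockdown. Its log2 change was -2.62 ± 0.11 (adjusted p = 2.3e-11). The other subunits did not pass: Ppp3cb changed by -0.30, Ppp3cc by -0.15 and the regulatory subunit Ppp3r1 by 0.04. Of the calcineurin inhibitors, Rcan2 fell by 0.51 on the log2 scale, while Rcan1, a gene that calcineurin and NFAT induce, changed by 0.01 (95% interval -0.19 to 0.21) and had values of 1576, 1718 and 1564 against 1666, 1543 and 1697.

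Among the transcription factors that calcineurin acts with, Mef2a went from 7578, 7627 and 7299 to 3405, 3370 and 3839 (-1.09 ± 0.10, adjusted p = 1.1e-06). Mef2c went from 2295, 2146 and 2203 to 1099, 1133 and 1231 (-0.94 ± 0.09, adjusted p = 1.5e-06). Every knockdown library lay below every control for both. Mef2d (0.01) and the 4 NFAT genes, Nfatc1 (0.01), Nfatc2 (-0.27), Nfatc3 (0.06) and Nfatc4 (0.13), were not called. Over the list of calcineurin, NFAT and MEF2 genes, 5 of 21 fell (23.8%, against 3.21% of all genes) and none rose, with a median of -0.12. The fifth was Hdac9, a class IIa histone deacetylase that holds MEF2 in check, at -0.64, named after its value was seen. Of genes whose mean value reached 50, 5.32% fell, and of those over 250 kb, Ppp3ca and Hdac9 among them, 39.7% fell. The part of gene span in the share of this list was not tested.

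Of 19 adrenergic signalling genes, 2 fell (10.5%, against 3.21% of all genes), both protein kinase C genes. Both are over 250 kb, a class in which 39.7% of genes whose mean value reached 50 fell. Prkca, the classical alpha isoform, went from 1627, 1666 and 1599 to 557.6, 699.6 and 575.7 (-1.42 ± 0.10, adjusted p = 4.8e-08). Prkce, the calcium-independent epsilon isoform, went from 940.3, 938.7 and 823.0 to 408.0, 493.5 and 440.0 (-1.01 ± 0.11, adjusted p = 8.6e-06). The receptors and G proteins had no call among 8 members, with a median of 0.08.

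Some membrane and sarcoplasmic reticulum genes fell as well. Of 22 calcium handling and channel genes, 7 fell (31.8%, against 3.21% of all genes) and none rose, with a median of -0.24. Kcnj4, a channel gene that rose, is not on the list. Slc8a1, Cacna1c, Kcnd2 and Trdn are over 250 kb, a class in which 39.7% of genes whose mean value reached 50 fell. The part of gene span in the share of this list was not tested. Slc8a1, the sodium-calcium exchanger that removes calcium after each beat, had values of 26010, 24740 and 25670 in the controls and 9050, 9569 and 10120 in the knockdown, a change of -1.41 ± 0.11 (adjusted p = 7.7e-08). Kcnj3, a subunit of the acetylcholine-gated potassium channel, went from 2093, 1970 and 1989 to 945.6, 943.6 and 1092 (-1.02 ± 0.10). Cacna1c, the pore of the L-type calcium channel, went from 6016, 5271 and 5845 to 2513, 4261 and 3016 (-0.84 ± 0.14, adjusted p = 9.4e-04). PBS knockdown replicate 2 was the highest of the 3 knockdown libraries for Cacna1c and still lay below every control. Kcnd2, which carries transient outward current, fell by 1.22 on the log2 scale. Ryr2, the release channel of the sarcoplasmic reticulum (-0.20), and its calcium pump Atp2a2 (-0.09) were not called. The called genes were 5 of 14 plasma membrane members and 2 of 8 members of the sarcoplasmic reticulum, namely Trdn, triadin of the release complex (-0.65), and Sln, the pump inhibitor sarcolipin (-0.44). Only 4 members were called without PBS control replicate 2 or 3, and 4 with edgeR or limma-voom.

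Most members of the contractile and hypertrophy lists were not called. Of 20 sarcomere genes, 2 fell (10%, against 3.21% of all genes and 5.32% of those whose mean value reached 50). These were Myom1, which links thick filaments in the M-band, and Tcap, a titin cap protein of the Z-disc, each by 0.68 on the log2 scale. Titin itself (Ttn) changed by -0.49 (adjusted p = 0.070) and Myh6, the main adult ventricular myosin of mice, by -0.36 (95% interval -0.79 to 0.07), with values of 308700, 347000 and 313800 against 236100, 286700 and 235900. Of 16 hypertrophic and fetal genes, 4 fell (25%, against 3.21% of all genes) and 1 rose. Their median was -0.34, and 13 had a change below 0.

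Of the fetal genes usually read as hypertrophy markers, Nppb and Myh7 were called lower. Nppa and Acta1 were not called, though their changes were below 0 too. Whether the changes differed between these genes was not tested. Nppb, the gene of B-type natriuretic peptide, had values of 2544, 3721 and 2709 in the controls and 2335, 1781 and 1855 in the knockdown, with no overlap. Its log2 change of -0.58 ± 0.13 (adjusted p = 0.012) became -0.41 (0.070) without PBS control replicate 2 and -0.53 (0.054) without PBS knockdown replicate 3. The Nppb call was lost in 7 of 18 alternatives. Among them were limma on the 6 PBS libraries alone (0.058) and without both PBS libraries numbered 2 (-0.34, 0.088). EdgeR with median-of-ratios factors (0.066) or TMM (0.068) and limma-voom (0.068) did not call it either. Myh7, the fetal ventricular myosin of mice, went from 8664, 10010 and 9833 to 6067, 7514 and 6130, a change of -0.54 ± 0.12 (adjusted p = 0.012). That call was lost without PBS control replicate 2 (-0.50, 0.053), PBS control replicate 3 (-0.51, 0.063) or PBS knockdown replicate 3 (-0.49, 0.053). Xirp2, an actin-binding protein of intercalated discs, changed by -1.20 ± 0.18 and Fhl1, a LIM protein of the sarcomere, by -0.48 ± 0.09, and both kept their call under all 18 alternatives. Nppa changed by -0.32 (95% interval -0.55 to -0.10, adjusted p = 0.10) and Acta1 by -0.15 (-0.38 to 0.08). Cdh2, N-cadherin of the intercalated disc, fell by 0.84 on the log2 scale, from 17560, 20870 and 17820 to 10560, 9858 and 10840.

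Proliferation genes of G2 and M phase were lower as a group. Of 20 members, 12 fell (60.0%, against 3.21% of all genes), none rose and all 20 had a change below 0, with a median of -0.51. Mki67, the proliferation marker Ki-67, had values of 3339, 4311 and 4056 in the controls and 2280, 2161 and 2402 in the knockdown (-0.77 ± 0.14, adjusted p = 0.0033). Top2a, the topoisomerase that untangles chromosomes before mitosis, went from 2169, 2390 and 2396 to 1726, 1226 and 1635 (-0.61 ± 0.12). Tpx2, a spindle assembly factor, changed by -0.62 ± 0.11 and Ccna2, cyclin A2, by -0.55 ± 0.10. No knockdown library of these 4 genes reached the lowest control. Leaving out PBS control replicate 3 reduced the 12 to 7, and leaving out both libraries numbered 2 left 10. Of 17 S phase genes, 1 fell (5.88%, against 3.21% of all genes). It was Ccne2 at -0.85, which overlaps Ints8 and was not called without PBS control replicate 2 (-0.75). Mcm2 (0.12), Pcna (0.02) and Mcm7 (0.03) were not called. Markers of other cell types moved beside this list, as given above, and their part in the result was not tested.

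Promoters of G2 and M phase genes are known for the cell cycle genes homology region, with the core TTTGAA. That motif, searched on both strands and chosen after the values were seen, occurred in 11 of 16 promoter windows of the list (68.8%), against 12.7% of the windows of all tested genes and 18.7% of the windows of all genes called lower. The share in the list describes its members and is not a result of the knockdown. A TTTGAA match can share its last letters with the interferon motif searched below. The windows of Mki67 and Top2a, described above, are shown, with matches in capitals (RefSeq, GRCm38.p6, chr7:135716330-135716629 and chr11:99024140-99024439, both minus strand).
Mki67: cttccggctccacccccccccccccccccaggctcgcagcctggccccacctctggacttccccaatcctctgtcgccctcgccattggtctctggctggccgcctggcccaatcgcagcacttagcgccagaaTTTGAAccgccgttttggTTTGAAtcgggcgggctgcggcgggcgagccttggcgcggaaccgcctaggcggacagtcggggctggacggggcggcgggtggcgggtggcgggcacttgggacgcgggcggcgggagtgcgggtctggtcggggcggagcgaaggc
Top2a: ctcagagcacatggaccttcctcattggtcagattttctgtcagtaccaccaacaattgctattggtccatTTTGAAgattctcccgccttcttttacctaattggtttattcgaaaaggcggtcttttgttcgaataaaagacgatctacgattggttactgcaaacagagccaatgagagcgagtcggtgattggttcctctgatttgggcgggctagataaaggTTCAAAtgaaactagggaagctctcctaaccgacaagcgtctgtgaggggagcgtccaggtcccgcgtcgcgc

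**Figure D3:**
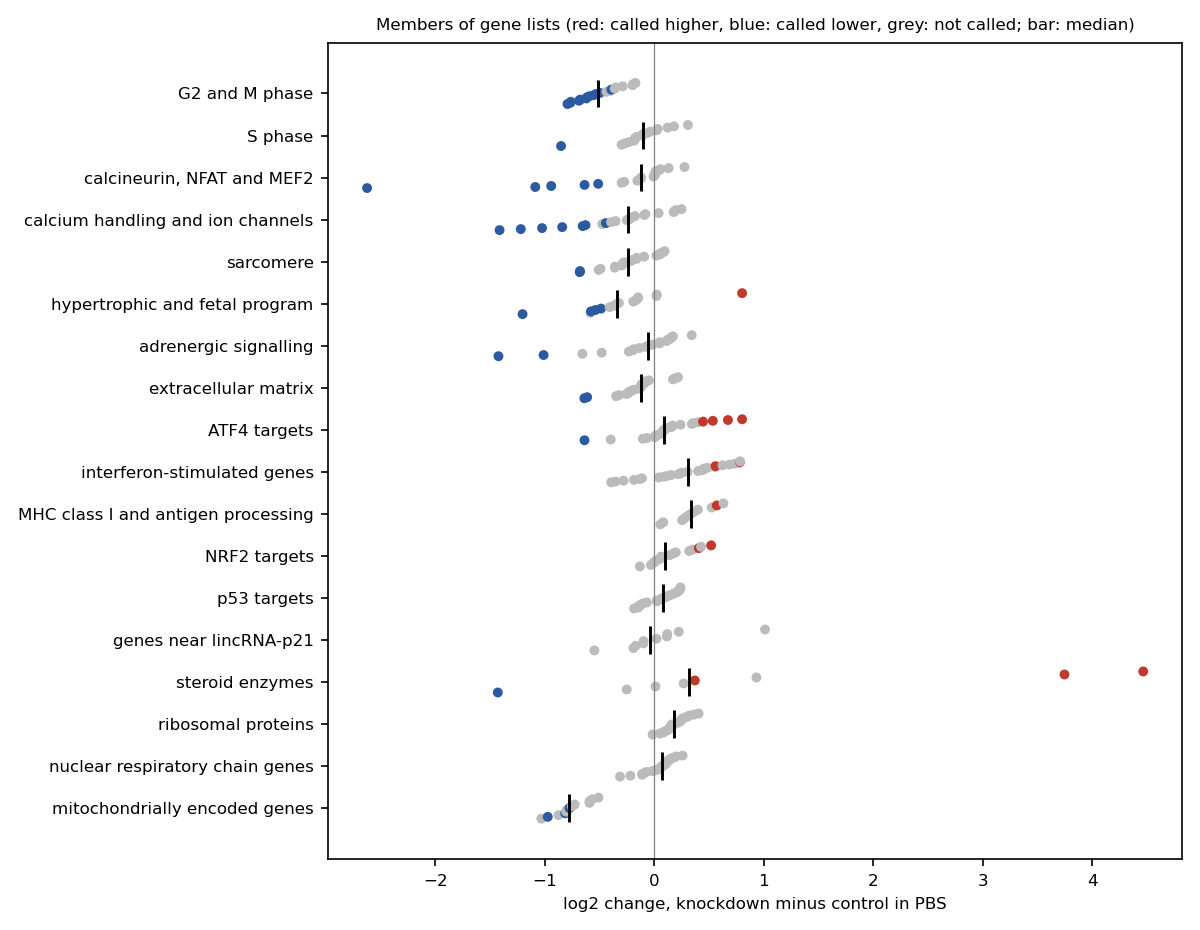
Log2 change (knockdown minus control in PBS) of each tested member of 18 gene lists, with a bar at the list's median. Members called higher are red, members called lower are blue and the rest are grey; 12 of 20 G2 and M phase genes and 7 of 22 calcium and channel genes are blue, and no p53 target is coloured.

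The genes that fell were long. Their median genomic span was 113.9 kb, against 12.5 kb for the genes that rose and 15.2 kb for all genes tested, and 55.7% of them spanned over 100 kb, against 3.07% and 10.8%. Among 12113 genes whose mean value reached 50, of which 5.32% fell and 2.25% rose, the share that fell was 1.28% below 10 kb, 1.85% from 10 to 30 kb, 4.74% from 30 to 100 kb, 15.4% from 100 to 250 kb and 39.7% above 250 kb. The share that rose went the other way, from 3.56% below 10 kb to 0 of 426 genes above 250 kb. Of those 426 longest genes, 169 fell and 396 had a change below 0, with a median of -0.37. Their median was -0.46, -0.34 and -0.32 in the 3 knockdown libraries and -0.001, -0.012 and 0.015 in the controls, all relative to the control mean, and the knockdown libraries did not overlap the controls. The number that fell ran from 117 to 191 over the alternatives and was 189 without both libraries numbered 2. Sema5a, Ralgapa2, Ppp3ca, Adgrl3, Erbb4, Slc8a1, Cacna1c, Kcnd2, Prkca and Prkce are all over 250 kb, whereas all 20 G2 and M phase genes are under 100 kb. Among the genes that fell, median GC content was 46.1% against 55.2% in those that rose and 49.4% in all tested, and the part of GC content in the result was not tested.

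**Figure D4:**
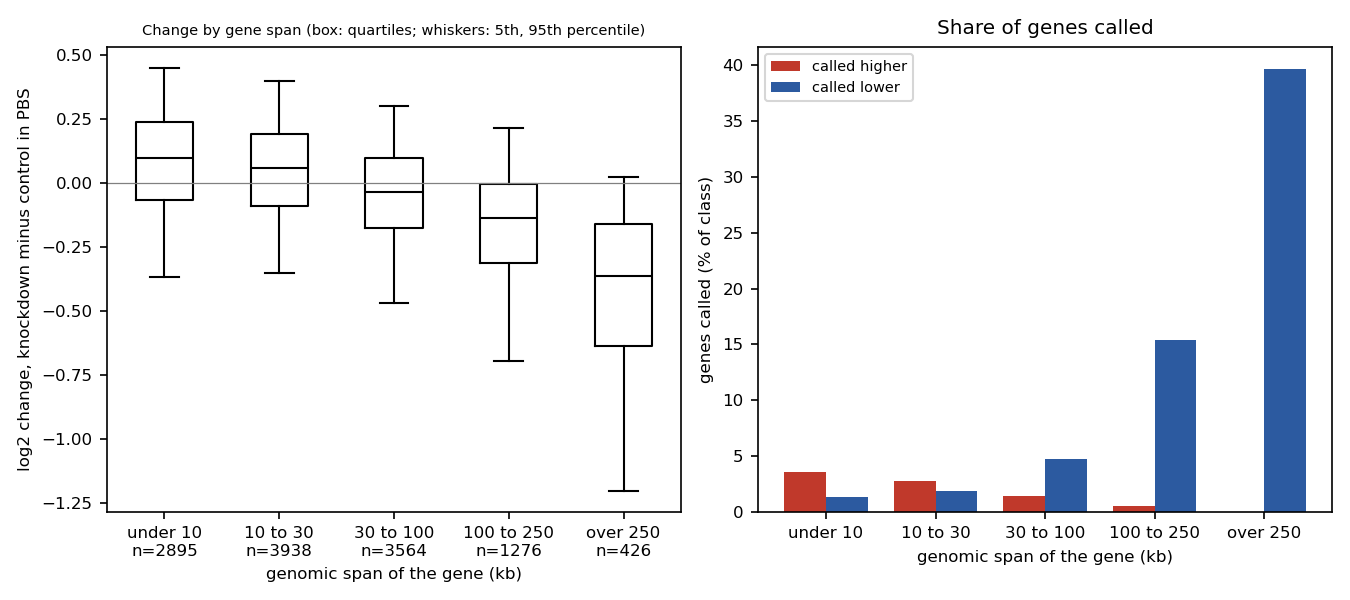
Left, log2 change by genomic span for genes whose mean value reached 50 (boxes, quartiles with the median; whiskers, 5th and 95th percentile). Right, the share of each span class called higher (red) or lower (blue), with bars from 0; the lower share goes from 1.28% of genes under 10 kb to 39.7% of genes over 250 kb.

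The p53 pathway and the neighbourhood of lincRNA-p21 showed no called gene with all libraries. Cdkn1a, which lies next to Trp53cor1, had values of 12830, 16440 and 12170 in the controls and 12400, 13200 and 12750 in the knockdown, a change of -0.10 (95% interval -0.35 to 0.15, adjusted p = 0.73). Srsf3, a splicing factor gene on the other side, changed by -0.17 (-0.42 to 0.08). None of 22 p53 targets was called by limma (median 0.08; 3 at an unadjusted p under 0.05), and none of 10 tested genes near lincRNA-p21 (median -0.04; 1). EdgeR, DESeq2 and limma-voom also called 0 in both lists. In limma, 1 p53 target was called lower without PBS knockdown replicate 2, and 1 neighbour, Ppil1, was called higher without both PBS libraries numbered 2 (0.39, adjusted p = 0.036). In the former list the 2 genes with the smallest p were Aen (0.24) and Phlda3 (0.24), and in the latter Ppil1 (0.22) and Cpne5 (-0.55). Of 11 genes named as partners of lincRNA-p21, Trim28 alone rose (9.09%, against 1.36% of all genes), and Hnrnpk changed by -0.11 and Hif1a by -0.19.

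Most stress and antiviral genes were not called without PE, although most ATF4 targets and interferon-stimulated genes had a change above 0. Of 28 ATF4 targets, which answer amino acid and mitochondrial stress, 4 rose (14.3%, against 1.36% of all genes) and 1 fell. Their median was 0.09, and 24 had a change above 0. Their summed value was 36480 to 39520 in the controls and 41300 to 47830 in the knockdown. Gdf15, a secreted stress cytokine, went from 607.2, 689.2 and 672.0 to 1080, 1446 and 958.9 (0.80 ± 0.15, adjusted p = 0.0037). Atf5 went from 4091, 5555 and 3890 to 6230, 8640 and 6669 (0.67 ± 0.14), and Slc3a2, the heavy chain of amino acid exchangers, from 1865, 1948 and 1924 to 2822, 3016 and 2504 (0.54 ± 0.10). Groups did not overlap for any of the 3. Aldh1l2, a mitochondrial folate enzyme, changed by -0.64 ± 0.10. Asns (0.01), Chac1 (-0.06) and Ddit3 (0.34) were not called. Of 16 endoplasmic reticulum chaperones and stress sensors, 1 fell (6.25%, against 3.21% of all genes), Atf6 at -0.38. Of 16 NRF2 targets 2 rose (12.5%, against 1.36% of all genes), Osgin1 (0.52) and Srxn1 (0.41). Without PBS control replicate 3 the calls of Atf5 (0.58), Atf6 (-0.39), Osgin1 (0.50) and Srxn1 (0.39) were lost; that of Atf6 was also lost without PBS control replicate 1 (-0.39) or 2 (-0.35) or PBS knockdown replicate 1 (-0.35), and that of Osgin1 without PBS control replicate 1 (0.49) or 2 (0.56) or PBS knockdown replicate 2 (0.33) or 3 (0.59).

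Of 27 interferon-stimulated genes, 2 rose (7.41%, against 1.36% of all genes) and none fell. Their median was 0.31, against 0.001 over all genes tested, and 21 had a change above 0. Ifi35 went from 365.3, 306.8 and 336.0 to 544.9, 505.2 and 440.0 (0.56 ± 0.13), and Xaf1 from 130.0, 98.2 and 120.8 to 229.4, 166.3 and 208.1 (0.78 ± 0.20). Neither was called without PBS control replicate 2 (0.50 and 0.67), without PBS control replicate 3 (0.56 and 0.81) or without PBS knockdown replicate 1 (0.49 and 0.68), and Xaf1 was not called without PBS knockdown replicate 3 (0.75). Ifit3, an antiviral effector, had overlapping values of 125.2, 122.7 and 103.8 against 136.0, 102.1 and 90.8, a change of -0.11 (95% interval -0.50 to 0.28). Tmem173, which encodes the DNA-sensing adaptor STING, rose by 0.49 among 16 sensors and adaptors. Tap2, a peptide transporter, rose by 0.57 among 11 genes of MHC class I presentation, all of which had a change above 0 (median 0.34). The summed value of these 11 was 11990 to 13160 in the controls and 13500 to 15490 in the knockdown. Of 9 interferon ligand and receptor genes, 4 receptors were tested and none was called by limma, edgeR, DESeq2 or limma-voom (1 at an unadjusted p under 0.05). Neither Tap2 nor Tmem173 was called without PBS control replicate 3 (0.44 and 0.46). Tap2 was also not called without PBS control replicate 1 (0.56), PBS knockdown replicate 1 (0.56) or PBS knockdown replicate 2 (0.51), and Tmem173 without PBS knockdown replicate 3 (0.47).

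Energy and protein synthesis genes encoded in the nucleus were not called: none of 24 respiratory chain genes (median 0.07), 22 ribosomal protein genes (0.18) and 19 ribosome biogenesis genes (0.14) passed in limma, while 1, 4 and 7 had an unadjusted p under 0.05. DESeq2 called 1 ribosomal protein gene, and edgeR and limma-voom called none of the 3 lists. Among the 22 ribosomal protein genes 21 had a change above 0 and 1 below. Their summed value was 244200 to 254000 in the controls and 270300 to 325800 in the knockdown. In limma, ribosome biogenesis had 2 genes called higher after rescaling to the same total, 3 higher and 1 lower without both PBS libraries numbered 2, 1 higher and 1 lower without PBS knockdown replicate 2, and 1 higher without PBS knockdown replicate 3. In limma without PBS knockdown replicate 1, 1 respiratory chain gene was called lower. The 13 mitochondrially encoded genes all had a change below 0 (median -0.77), and 3 fell (23.1%, while of all genes tested 3.21% fell and 1.36% rose). Those were mt-Atp6 (-0.97), mt-Co2 (-0.77) and mt-Co3 (-0.81), subunits of ATP synthase and cytochrome c oxidase. Without both libraries numbered 2 their list's median was -0.40, and after rescaling to the same total none was called. DESeq2, however, called 7 of the 13 lower, limma-voom 4 and edgeR 3. In PE the median of the 13 genes was -0.10, none was called, and no difference between PE and PBS was called for them. Among 22 fatty acid genes Angptl4, a lipase inhibitor, rose (0.40) and Ppargc1a, a coactivator of mitochondrial genes, fell (-0.36). Among 26 glycolysis and HIF targets the glucose transporter Slc2a1 rose (0.43) and adrenomedullin, Adm, fell (-0.42). Without PBS control replicate 1, 2 or 3 the calls of Angptl4 (0.39, 0.40 and 0.40), Ppargc1a (-0.36, -0.35 and -0.39) and Adm (-0.47, -0.39 and -0.41) were lost. Those of Ppargc1a and Adm were also lost without PBS knockdown replicate 3 (-0.39 and -0.37), and that of Ppargc1a without PBS knockdown replicate 1 (-0.32). All 3 mitochondrial calls were lost without PBS control replicate 1 (-0.80, -0.59 and -0.79) or PBS control replicate 3 (-1.15, -0.78 and -0.78). The call of mt-Atp6 was also lost without PBS control replicate 2 (-0.97) or PBS knockdown replicate 1 (-0.97) or 2 (-0.68), that of mt-Co2 without PBS knockdown replicate 2 (-0.66) or 3 (-0.75), and that of mt-Co3 without PBS control replicate 2 (-0.86) or PBS knockdown replicate 1 (-0.78) or 3 (-0.75).

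Smaller groups had few calls. Over all genes tested, 3.21% fell and 1.36% rose. Col8a1, a short-chain collagen, and Thbs4, a thrombospondin, fell by 0.64 and 0.61 on the log2 scale among 21 matrix genes. Fgf2 fell (-0.57) and Pdgfb rose (0.55) among 16 tested angiogenic and adenosine receptor genes, of which Adora2a had values of 37.0, 35.8 and 27.4 against 29.0, 27.1 and 29.3 (-0.21, 95% interval -0.80 to 0.38). Dusp4, a phosphatase of MAP kinases, rose by 0.53 among 21 immediate early and feedback genes, and none of 16 NF-kB targets was called by limma, edgeR, DESeq2 or limma-voom (5 at an unadjusted p under 0.05). The cytokine gene Il6, at mean values of 9.11 in the controls and 3.93 in the knockdown, had a change of -1.39 (adjusted p = 0.077) that limma called without PBS knockdown replicate 1 (-2.10, 0.00072) and under no other alternative (-1.79 to -0.90). Of 15 tested long noncoding RNAs 2 fell (13.3%), Xist by 0.58 and Airn by 0.64 on the log2 scale. For Xist the values were 4886, 4128 and 5212 against 2703, 3215 and 3605, beside values of the Y-linked Kdm5d of 270.4, 304.7 and 278.4 against 357.2, 334.4 and 346.5 (0.28). Other Y-linked genes did not share that direction, with Ddx3y at 0.07, Uty at -0.08 and Eif2s3y at -0.33. None of 10 tested Y-linked genes was called, and the part of the sex of the cells in the fall of Xist was not tested. The called marker genes were Mgp (-0.48) and Col15a1 (-0.45) of fibroblasts, Ptprb (-0.51) of endothelium, Krt18 (0.47) of epicardium and C1qc (1.51) of macrophages, the last from 8.54, 5.11 and 6.61 to 15.4, 24.4 and 23.8. Calls were lost without PBS control replicate 3 for Xist (-0.51), Airn (-0.63), Pdgfb (0.53), Mgp (-0.49), Col15a1 (-0.46), Ptprb (-0.45) and Krt18 (0.46), and without PBS control replicate 2 for Fgf2 (-0.55). Of these 8 genes, Xist lost its call without that library alone, and each of the others also without 2 to 4 other PBS libraries taken singly.

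Most genes that fell in PBS also fell with PE. The PE libraries did not enter the PBS changes themselves, although the 4 groups share 1 filter on low values and 1 estimate of the spread. With PE, 997 genes (4.57%) rose and 1556 (7.14%) fell with the knockdown. Of the 700 genes that fell in PBS, 548 (78.3%) also fell in PE, 35.2% of the PE falls. Of the 297 that rose in PBS, 132 (44.4%) also rose in PE, 13.2% of the PE rises. No gene was called in opposite directions. Across the 12113 genes whose mean value reached 50, the changes in PBS and PE had a Pearson correlation of 0.664 and a Spearman correlation of 0.547, which describe genes, not independent replicates.

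The change differed between PE and PBS for 12 genes (0.055% of those tested), in every case upwards with PE, as the plot of both changes shows. Trib3, a pseudokinase induced by ATF4, rose by 0.45 in PBS, from 591.1, 552.2 and 538.9 to 720.8, 877.6 and 704.1, and by 2.52 in PE, from 179.9, 163.6 and 156.3 to 822.1, 1108 and 973.9. The difference was 2.08 (adjusted p = 6.2e-06). Its PBS call was lost in 12 of 18 alternatives, without any of PBS control replicates 1 (0.48), 2 (0.44) or 3 (0.42) or PBS knockdown replicates 1 (0.49) or 2 (0.35) among them, but the difference was called in all 19 run for it. Among the interferon-stimulated genes, 22 of 27 rose in PE (median 1.34), and the change of 4 differed between PE and PBS: Ifit3 (1.85), Ifit3b (1.94), Rsad2 (1.86) and Cxcl10 (1.37). Rsad2, the antiviral enzyme viperin, had values of 40.8, 31.7 and 51.9 against 49.0, 48.8 and 33.9 in PBS and 118.5, 64.8 and 93.3 against 328.6, 381.8 and 335.5 in PE. Iigp1, an interferon-induced GTPase (1.91), and Zdhhc23, a palmitoyltransferase (1.87), also differed. For the G2 and M phase genes, 13 of 20 fell in PE and no difference was called. For genes over 250 kb, 70.7% fell in PE (median -0.63) and no difference was called downwards for any gene tested.

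Promoter windows of the genes whose change differed were searched for the interferon-stimulated response element, a pair of GAAA repeats with any 2 bases between them, and of ATF4 targets for the letters TGATGNAA, both on both strands. The former occurred in 6 of 10 windows of the genes whose change differed (60.0%) and in 10 of 21 windows of the interferon list (47.6%), against 3.09% of windows of all tested genes and 3.65% of windows of genes called higher in PBS. The latter occurred in 9 of 30 windows of the ATF4 list (30%), against 2.41% of all tested and 1.99% of windows of genes called higher in PBS. The shares in the interferon and ATF4 lists describe their members, which are known targets, and are not results of the knockdown. 3 of the genes that differed are shown with matches on either strand in capitals (RefSeq, GRCm38.p6, chr19:34583279-34583578 plus, chr12:26456403-26456702 minus and chr2:152344011-152344310 minus). A match describes letters in a window and is not a tested site.
Ifit3: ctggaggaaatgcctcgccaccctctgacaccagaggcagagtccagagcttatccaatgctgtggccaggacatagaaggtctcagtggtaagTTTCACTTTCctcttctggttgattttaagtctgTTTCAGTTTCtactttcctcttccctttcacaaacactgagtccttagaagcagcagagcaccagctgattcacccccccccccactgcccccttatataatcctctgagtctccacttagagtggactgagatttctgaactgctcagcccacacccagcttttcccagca
Rsad2: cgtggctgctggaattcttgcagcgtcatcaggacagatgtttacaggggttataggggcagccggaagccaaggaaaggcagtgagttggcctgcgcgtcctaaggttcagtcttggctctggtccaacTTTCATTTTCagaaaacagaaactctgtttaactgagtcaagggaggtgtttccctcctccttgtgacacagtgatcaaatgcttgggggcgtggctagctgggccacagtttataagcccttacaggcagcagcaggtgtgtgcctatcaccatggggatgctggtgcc
Trib3: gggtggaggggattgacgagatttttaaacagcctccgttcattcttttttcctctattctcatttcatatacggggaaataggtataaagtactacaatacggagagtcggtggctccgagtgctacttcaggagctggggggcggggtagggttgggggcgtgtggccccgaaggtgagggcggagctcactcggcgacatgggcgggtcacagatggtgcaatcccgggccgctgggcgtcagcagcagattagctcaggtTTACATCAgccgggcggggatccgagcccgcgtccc

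**Figure D5:**
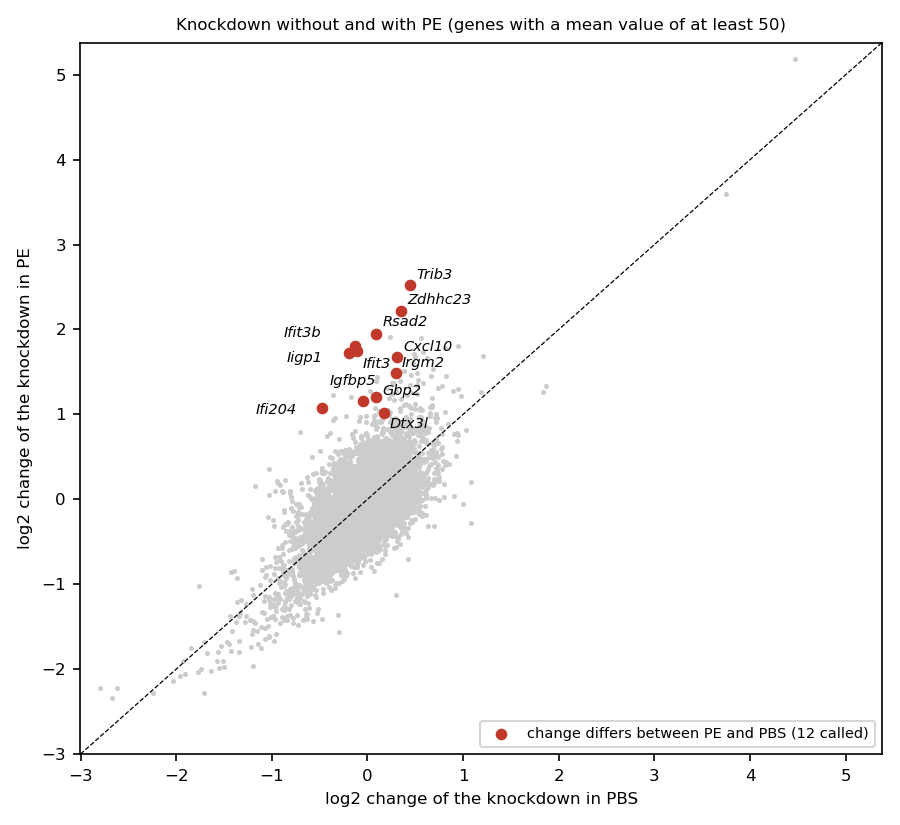
Log2 change of the knockdown with PE (vertical axis) against that in PBS (horizontal axis) for genes whose mean value reached 50, with a dashed line of equal change. The 12 genes whose change differed are red and all lie above the line, led by Trib3 at 0.45 in PBS and 2.52 in PE.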

How the data were processed

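RNA selection, tool versions, annotation release and strand use are not given in the sources used here. Per the submitters' processing notes, STAR, SAMtools and featureCounts processed the paired reads of 12 libraries on GRCm38.p6. The authors deposited a signal for 55416 genes, which the values show to be read counts over a size factor for each library: dividing by the smallest step gave whole numbers for 100% of values in the 6 PBS libraries (tolerance 0.001). The table has 0 columns of no sample. The chi-square between replicate pairs in PBS, over its degrees of freedom, was 2.31 for PBS control replicates 1 and 3. It was 11.3 to 47.9 for the other pairs, so no library is a copy of another. Whether libraries shared a culture cannot be told from it.

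Tests used limma 3.58.1 on log2(value + 1) for genes whose mean reached 1 (trended prior, 4 group means over 12 libraries, two-sided, Benjamini-Hochberg at 0.05). Having 3 libraries a group limits the precision. The limma script was tested on simulated counts. Alternatives were other pseudocounts, filters and scalings, edgeR 4.0.16, DESeq2 1.42.0 and limma-voom on the recovered reads of the PBS libraries, a replicate block and libraries left out.

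Symbols and spans came from GENCODE M21 (52135 of 55416 identifiers matched without version). Promoter windows came from RefSeq. Of 128 genes named by rule, 34 overlap another tested gene in an exon, so reads may not have been told apart.

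The comparison, the 38 gene lists and the rules for named genes were chosen with earlier results of these data known. Named were Trp53cor1 and 9 heart, neighbour and angiogenic genes, the 12 largest called changes in each direction with a PBS mean that reached 50, no overlap between groups and no predicted gene model, the 5 most abundant called genes in each direction, for each list at most 4 called members (or the 2 with the smallest p) and the 5 largest differences between PE and PBS. Other named members of lists are given for their role. Motifs for p53 and serum response factor were planned but not searched, and that for cell cycle genes was added after the values were seen.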

Additional observations from a re-analysis of the deposited data

Results flagged for a closer look

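The knockdown changed 12 genes differently with PE than without it, by a test of the difference itself (limma, adjusted p beside each log2 difference, PE minus PBS). Those named by rule were Trib3 (2.08, 6.2e-06), Ifit3b (1.94, 0.0067), Iigp1 (1.91, 0.011), Zdhhc23 (1.87, 0.011) and Rsad2 (1.86, 0.026). The other 7, chosen after their values were seen, were Ifit3 (1.85, 0.0083), Ifi204 (1.55, 0.026), Cxcl10 (1.37, 0.020), Igfbp5 (1.20, 0.026), Irgm2 (1.19, 0.033), Gbp2 (1.12, 0.015) and Dtx3l (0.84, 0.020). Trib3, Ifit3 and Ifit3b kept the call in all 19 alternatives, Zdhhc23 lost it in 1, Iigp1 in 2, Cxcl10 and Gbp2 in 5, Dtx3l in 6, Igfbp5 and Rsad2 in 7, Ifi204 in 9 and Irgm2 in 11. Exons of Art3 overlap Cxcl10, those of Igtp overlap Irgm2 and those of Parp9 overlap Dtx3l.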

How the results depend on the processing

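The 297 rises and 700 falls in PBS became 481 and 501 after rescaling to the same total, 97 and 437 with the 6 PBS libraries alone, 101 and 434 with edgeR, 97 and 436 with edgeR and TMM, 83 and 427 with limma-voom and 113 and 415 with a fold of at least 1.5. DESeq2 gave 244 and 639, and 792 of its 883 calls were also made by limma, as were 520 of 535 edgeR calls. Leaving out 1 library gave 124 to 260 rises and 386 to 753 falls, both lowest without PBS control replicate 3. Without PBS control replicate 1 they were 136 and 422, and without PBS control replicate 2 174 and 493. The 12 differences between PE and PBS became 3 (without PBS control replicate 3) to 22 (without PE control replicate 1) with 1 library left out, 29 without both PBS libraries numbered 2 and 19 after rescaling without mitochondrial genes. With a replicate block, 211 genes rose, 611 fell and 12 differed. Same-numbered libraries had residual correlations of -0.003 to 0.091 between the PBS groups and -0.435 to 0.409 over all groups, so the numbers were not treated as pairs. Of 86 named calls in PBS, 45 kept their direction and call under all 18 alternatives and 41 lost the call in some, and none reversed. Of 42 named genes not called, 7 changed sign in some. With 1 library left out, Rsad2 ran from -0.09 (without PBS control replicate 2) to 0.26, Rcan1 from -0.01 (without PBS control replicate 3 or PBS knockdown replicate 3) to 0.06 with -0.00 without PBS control replicate 1, Cdkn1a from -0.18 to 0.03 (without PBS control replicate 2), Alas2 from -0.08 (without PBS knockdown replicate 2) to 2.68, Igfbp5 from -0.16 to 0.07 (without PBS knockdown replicate 1), Iigp1 from -0.34 to 0.01 (without PBS knockdown replicate 2) and Ifit3 from -0.28 to 0.01 (without PBS knockdown replicate 3). Without both libraries numbered 2, Rsad2 was -0.17, Cdkn1a 0.01 and Alas2 -0.50, and rescaled to the same total Igfbp5 was 0.02. The cause was not tested. Fits that leave libraries out also rest on fewer libraries, and the part of that was not tested either. Count tests of the difference between PE and PBS, and that difference in the 6 PBS libraries alone, were not run. Counts of list members under these settings were added after the data were seen.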
